A study of Mus musculus with 4 samples.

Results

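The nuclear genes that encode subunits of the oxidative phosphorylation system were described in wild-type glial progenitors and in those labelled as lacking Qk, which encodes Quaking, a protein that binds RNA. Members were the rows whose symbol began with Nduf and a letter of a, b, c, s or v followed by a digit, or matched Sdha to Sdhd, Uqcr, Cox4 to Cox8 followed by a letter, or Atp5 followed by a letter. Symbols with -ps were left out (2 rows, Atp5c1-ps and Uqcrh-ps1). This gave 84 of the 35857 genes listed: 37 of complex I, 4 of complex II, 8 of complex III, 18 of complex IV and 17 of complex V, by symbol prefix. The cells were neural stem cells of C57BL/6 mice, taken from embryonic cerebral cortex and sampled at 24 hr after glial differentiation was induced, and both groups had this strain, tissue and time in common. The control group was wild type (2 libraries), and the knockout group, Qk_KO, was labelled Qk-/- (2 libraries); the sources used here give neither the way the deletion was made nor the age of the embryos. Expression was given as TPM, the abundance of a gene as a length-corrected share of all transcripts, so read depth cannot be stated and intervals from counting are left out. The labels do not say whether the 2 libraries in each group were separate cultures, so p-values measure the spread between these libraries. In control this spread may be technical. The Qk_KO libraries differed in sex by Xist and Eif2s3y, given below, so their spread also holds that difference.

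Oxidative phosphorylation takes place in the inner mitochondrial membrane. Complex I oxidises NADH, complex II oxidises succinate, complex III passes electrons from ubiquinol to cytochrome c, complex IV reduces oxygen, and complex V, the ATP synthase, uses the proton gradient that complexes I, III and IV build. Most subunits are encoded in the nucleus, and a few hydrophobic core subunits of complexes I, III, IV and V are encoded in mitochondrial DNA, while all of complex II is nuclear. Neurons and glia differ in how much of their ATP they draw from this system, and neural stem cells are known to shift towards it as they differentiate. The mitochondrially encoded genes were looked for under 26 symbols; 0 of these were matched, and these genes were not analysed here.

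Qk, the deleted gene, measured 208 (replicate 1) and 215 TPM (replicate 2) in control, against 36.1 and 43.7 TPM in Qk_KO, so the transcript was lower on the side the labels give and was still measured. Genes of glial progenitors were present, with Fabp7 between 2354 and 3144 TPM and Sox2 between 195 and 239 TPM over the 4 libraries. Of the 10 markers of this list 1 was called: Slc1a3, a glutamate transporter, fell from 338 and 435 TPM in control to 117 and 150 TPM in Qk_KO (log2 fold change -1.53, Benjamini-Hochberg adjusted p from limma = 0.0324). Markers of other cell types were also measured. The summed level of the 10 microglia and macrophage markers lay between 46.1 and 54.8 TPM in control. In Qk_KO it lay between 18.3 and 26.4 TPM. That of the 8 neuron markers lay between 298 and 466 TPM in control and between 616 and 721 TPM in Qk_KO. Most of it was Tubb3, at 275 and 126 against 512 and 383 TPM, and Map2, at 143 and 135 against 133 and 149 TPM. Of the 8, 7 had a log2 fold change above 0, where 54.4% of all genes tested did. Snap25 was called higher, and Neurod6 was lower without overlap. The 6 oligodendrocyte lineage markers summed to between 108 and 158 TPM in control and between 24.9 and 53.2 TPM in Qk_KO, with Mog at 0 in all libraries. Erythroid markers summed to at most 1.56 TPM in any library, with Alas2 and Hbb-bt at 0 in all 4, and endothelial markers to between 5.44 and 7.17 TPM. The 8 pericyte and fibroblast markers summed to between 1194 and 1352 TPM in control and between 1653 and 3526 TPM in Qk_KO. Almost all of it was Acta2, and Rgs5 and Lum were under 1 TPM in each library. Of the 5 tested, Acta2 was higher and 2 were lower without overlap, beside 33.6% and 27.5% of all genes tested. These 2 were Col1a1, at 26.6 and 20.4 against 16.1 and 15.9 TPM, and Cspg4, at 22.5 and 30.6 against 11.3 and 20.5 TPM. The part of these cell types in the values below was not tested, and in bulk RNA fewer cells of a type and less RNA per cell cannot be told apart. Xist stood at 0.04 TPM in Qk_KO replicate 1 and between 57.6 and 62.5 TPM in the other libraries. Eif2s3y, a gene of the Y chromosome, was at 35.4 TPM in Qk_KO replicate 1 and at 0 in the others. By these genes Qk_KO replicate 1 was male and the other libraries female, so sex was not balanced between the groups. The part of sex in the values below was not tested, and 3 members, Ndufa1, Ndufb11 and Cox7b, lie on the X chromosome.

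The subunits were among the abundant transcripts of these cells. Together the 84 genes took between 3.72% and 4.18% of each library's TPM, and 69 of them averaged 100 TPM or more, against a median of 23.7 TPM over the 13260 genes tested. The highest mean was that of Atp5b, the catalytic beta subunit of the ATP synthase, at 2457 and 2482 TPM in control against 2756 and 3052 TPM in Qk_KO. Next came Cox6a1, a nuclear subunit of cytochrome c oxidase, at 2004 and 1846 TPM in control and 2342 and 2210 TPM in Qk_KO. Median levels over the subunits of a complex, as means over the 4 libraries, were 289 TPM for complex I, 284 TPM for complex II, 475 TPM for complex III, 315 TPM for complex IV and 790 TPM for complex V. Low rows were mostly isoforms known from other tissues: Cox8c and Cox7b2 were listed at 0 in all libraries, and Cox8b, a subunit of heart and muscle, was at 1.12 and 0.60 TPM in control and 0.30 and 1.79 TPM in Qk_KO. The plot of levels by library sets the subunits side by side.

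**Figure D1:**
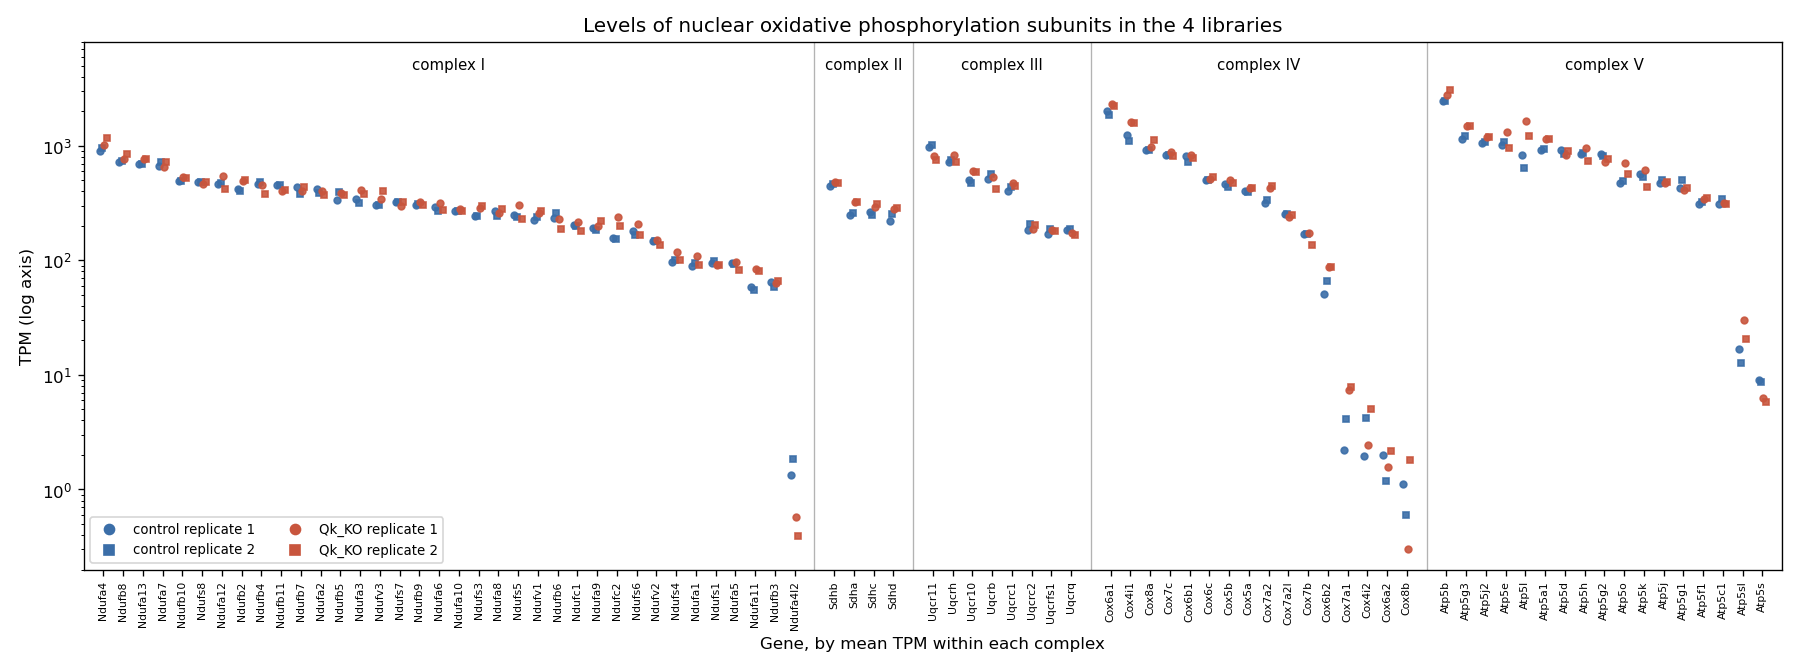
TPM on a log axis for the subunits above 0 in at least 1 library, except 1 of complex I that is not reported here, ordered by mean level within complexes I to V; blue is control, red is Qk_KO, circles are replicate 1 and squares replicate 2. Most subunits lie between 100 and 1000 TPM with the 4 libraries close together, and the rows under 10 TPM are Ndufa4l2, Cox7a1, Cox4i2, Cox6a2, Cox8b and Atp5s.

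Subunit transcripts were short. The median transcript length over the 84 genes was 608 nt against 1451 nt for all genes tested with an entry in GENCODE M21, and 871 nt for tested genes averaging 100 TPM or more, while the median GC content was 51.9% against 51.0% and 52.8%. In 28 of the 84 genes a transcript matched that of another annotated gene over at least 200 nt at 95% identity or more, and such a copy can draw reads from the gene. Atp5l had the most, 11. Exons of 26 subunits overlapped an antisense gene, and because the strand setting is not given, reads of these pairs cannot be told apart.

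No subunit passed the test of Qk_KO against control. Of the 81 subunits that averaged 1 TPM or more, 0 were higher, 0 were lower and 81 did not pass an adjusted p of 0.05 (limma, Benjamini-Hochberg over all genes tested), where 3.24% of the 13260 genes tested passed, 1.83% higher and 1.42% lower. Adjusted p-values of the subunits began at 0.0515. At an unadjusted p under 0.05, 21 of the 81 passed, or 25.9%, where 28.4% of all genes tested did. Of these, 18 subunits (22.2%) were at a higher and 3 (3.7%) at a lower level in Qk_KO, beside 15.8% and 12.6% of all genes tested. The groups did not overlap for 48 of the 81, or 59.3%, where the same held for 61.1% of all genes tested. Qk_KO lay above in 37 (45.7%) and below in 11 (13.6%), beside 33.6% and 27.5% of all genes tested. Among genes averaging 100 TPM or more, 0 of 69 subunits passed where 5.01% of 1857 genes did, 15 subunits (21.7%) had an unadjusted p under 0.05 where 36.0% of those genes did, and 41 (59.4%) did not overlap where 66.9% of those genes did not. By direction, Qk_KO lay above without overlap in 33 and below in 8 of these 69 subunits, beside 615 and 627 of the 1857 genes. A log2 fold change above 0 was found in 48 of the 69 and in 938 of the 1857, with medians of 0.08 and 0.0047. These pooled shares and counts carried no test. At 10 of 16 other settings 0 subunits passed, and at the other 6 between 1 and 5 did: Ndufa11 at 5 of the 16, Atp5l and Cox4i1 at 2, Cox7a1 at 1, and Atp5sl with the replicate number as a block. In every such case the subunit was higher in Qk_KO. The number of all genes called also moved with the setting. It was 0 of 21835 with no filter on low genes, 41 of 13260 without limma's trend and 1278 of 13260 with the block. Where few genes passed at all, 0 subunits passing says little of the subunits.

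The precision of single subunits limits what can be said of those that did not pass. Fold changes below are differences of log2(TPM + 1), Qk_KO minus control, with limma's standard error (SE), and they understate the change of low genes. The 95% interval lay within -1 and 1 log2 unit for 76 of the 81 subunits and within -0.5 and 0.5 for 57, against 80.5% and 33.7% of all genes tested. Among genes averaging 100 TPM or more, it did so for 68 and 53 of 69 subunits and 1716 and 1015 of 1857 genes. Of the 81 subunits, the 5 whose interval reached beyond 1 log2 unit were Ndufa4l2, Cox7a1, Cox4i2, Atp5l and Atp5sl.

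**Figure D2:**
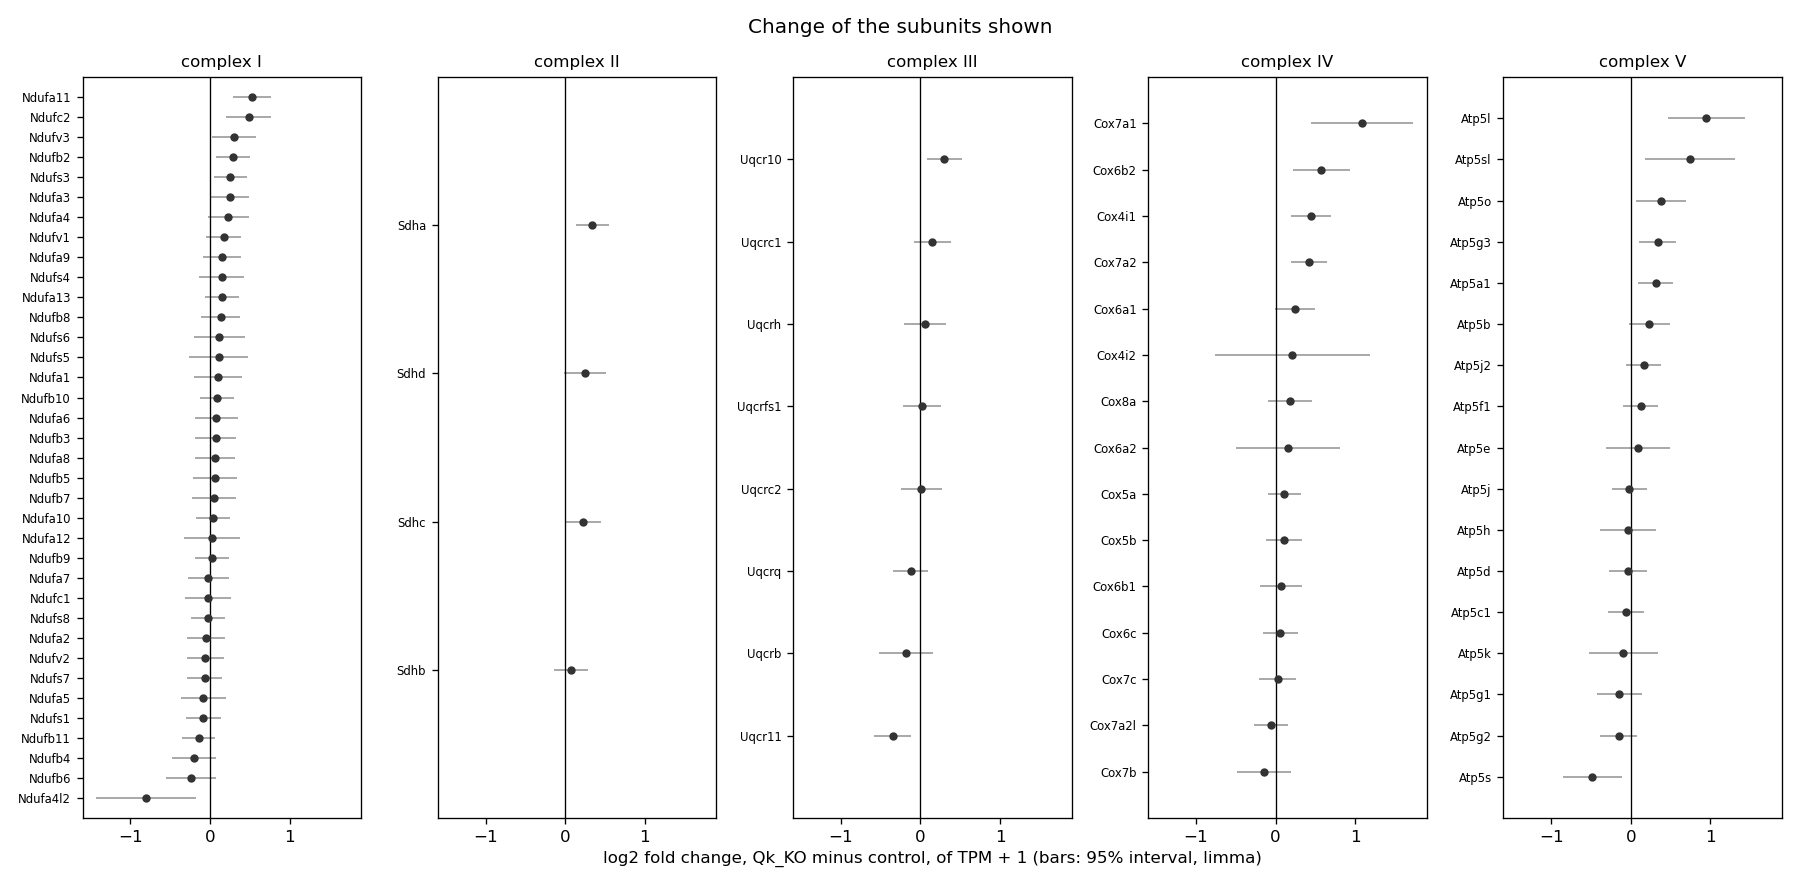
Difference of log2(TPM + 1), Qk_KO minus control, with its 95% interval from limma, for the subunits tested except 1 of complex I, in 1 panel for each complex. The points run from -0.80 for Ndufa4l2 to 1.09 for Cox7a1. All 4 of complex II lie to the right of 0, where 54.4% of all genes tested did.

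Medians were taken over each complex, with no test between complexes. Over all 81 subunits the median log2 fold change was 0.09, with 56 above 0 and 25 below, beside a median of 0.04 over all genes tested, of which 54.4% were above 0. The medians were 0.07 for complex I, 0.24 for complex II, 0.02 for complex III, 0.16 for complex IV and 0.09 for complex V. They depended on the processing. With each library's trend on GC content removed they were 0.04, 0.19, 0.02, 0.09 and 0.01, and with median-ratio scaling the overall median was 0.05. That of complex III was -0.02 with median-ratio scaling and with quantile normalization, which also moved the median of all genes tested, to 0.0044 and -0.01. Single libraries moved the medians too: that of complex I was 0.03 without Qk_KO replicate 1 and 0.13 without control replicate 1, that of complex IV was 0.08 without control replicate 2 and 0.25 without Qk_KO replicate 1, that of complex V was 0.03 without Qk_KO replicate 1, 0.06 without control replicate 1 and 0.16 without Qk_KO replicate 2, and that of complex III was -0.06 without control replicate 1 and 0.10 without control replicate 2. The overall medians without 1 library lay between 0.06 and 0.11, and those of complex II between 0.20 and 0.27.

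Summed levels gave a similar picture. All subunits together came to 37273 (replicate 1) and 37197 TPM (replicate 2) in control, and to 41771 and 40383 TPM in Qk_KO. The means were 37235 ± 53.4 and 41077 ± 981 TPM (SD, n = 2), a ratio of 1.10. Both Qk_KO sums lay above both control sums, and the two-sided exact permutation p was 0.333, the smallest that 2 against 2 libraries can give. Complex V had the largest sums, at 12622 and 12694 TPM in control and 14942 and 14080 TPM in Qk_KO, and without Atp5l the ratio of its means went from 1.15 to 1.10. Complex IV stood at 7986 and 7614 against 9045 and 8885 TPM, and complex I at 11824 and 11838 against 12607 and 12546 TPM. Complex II had the smallest sums, 1182 and 1233 against 1385 and 1389 TPM. For these 4 complexes the groups did not overlap. Complex III was the exception: its sums were 3658 and 3817 TPM in control and 3792 and 3484 TPM in Qk_KO, so the groups overlapped.

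**Figure D3:**
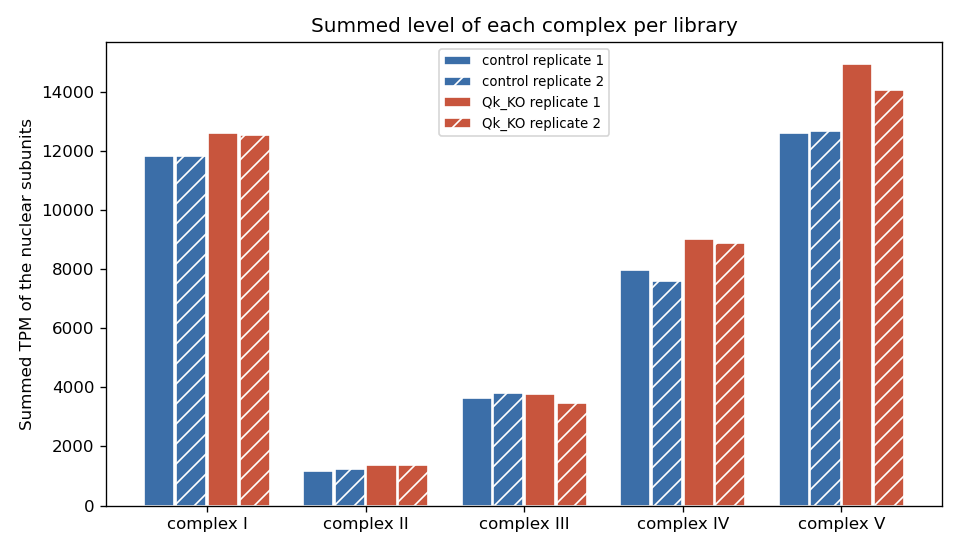
Summed TPM of the nuclear subunits of complexes I to V, as bars from 0 for each of the 4 libraries; blue is control, red is Qk_KO, plain bars are replicate 1 and hatched bars replicate 2. The red bars exceed the blue ones for complexes I, II, IV and V, and for complex III Qk_KO replicate 2 is the lowest at 3484 TPM.

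In complex I, 0 of 37 subunits were called, where 3.24% of all genes tested were. Of the 37, 25 had a log2 fold change above 0 and 12 below, where 54.4% of all genes tested lay above 0. Ndufa11, a supernumerary subunit of the membrane arm, had the lowest adjusted p of all subunits. It stood at 58.7 and 55.1 TPM in control and 84.1 and 80.4 TPM in Qk_KO, both Qk_KO values above both control values. The log2 fold change was 0.52 (SE 0.10, Benjamini-Hochberg adjusted p from limma = 0.0515). Over the alternatives its adjusted p lay between 0.0433 and 0.289. Its exons overlap those of Vmac on the other strand. Ndufc2, another membrane arm subunit, was at 158 and 154 TPM in control and 238 and 201 TPM in Qk_KO, also without overlap (log2 fold change 0.49, adjusted p = 0.0697, limma). The 7 nuclear core subunits, which carry the redox centres and the ubiquinone site, had a median of -0.03. The other 30 genes counted here had a median of 0.08. They are supernumerary subunits, which surround the core, except Ndufa4 and Ndufa4l2, which are taken up below. Among the core, Ndufs3 was at 243 and 244 TPM in control and 286 and 297 TPM in Qk_KO, while Ndufs1, the largest subunit, was at 94.0 and 98.4 against 90.95 and 90.6 TPM. Ndufv1, which binds NADH and flavin, was at 226 and 240 against 258 and 268 TPM. For all 7 core subunits the 95% interval lay within -0.5 and 0.5 log2 unit.

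Ndufa4 carries a complex I name but is now counted as a subunit of complex IV. It had the highest mean of the Nduf genes, at 906 and 952 TPM in control and 1023 and 1159 TPM in Qk_KO. Its paralogue Ndufa4l2, known as a gene induced by hypoxia, was at 1.34 and 1.86 TPM in control and 0.58 and 0.39 TPM in Qk_KO, the lowest log2 fold change among the subunits (-0.80, SE 0.25, Benjamini-Hochberg adjusted p from limma = 0.116). Its exons overlap those of Shmt2 on the other strand, and the part of reads from Shmt2 in this low value was not tested. Counting both with complex IV left the medians of complexes I and IV at 0.07 and 0.16.

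Complex II, succinate dehydrogenase, links the tricarboxylic acid (TCA) cycle to the respiratory chain. For all 4 of its genes both Qk_KO values lay above both control values, where 33.6% of all genes tested did. None passed, where 3.24% of all genes tested did. Sdha, the flavoprotein that oxidises succinate, stood at 251 and 260 TPM in control and 325 and 323 TPM in Qk_KO (log2 fold change 0.34, SE 0.08, Benjamini-Hochberg adjusted p from limma = 0.0761). The membrane anchors lay closer together, Sdhc at 264 and 251 against 293 and 309 TPM, and Sdhd at 220 and 256 against 281 and 286 TPM. Sdhb, the iron-sulfur subunit, differed least, at 446 and 466 against 487 and 471 TPM, and with the GC trend removed its log2 fold change was -0.003.

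In complex III, 0 of 8 subunits were called, where 3.24% of all genes tested were. The 2 subunits with the largest differences went in opposite directions. Uqcr11, a small accessory subunit, was at 983 and 1013 TPM in control and 816 and 751 TPM in Qk_KO, so Qk_KO was the lower group without overlap (log2 fold change -0.35, SE 0.09, Benjamini-Hochberg adjusted p from limma = 0.0881). Uqcr10 was at 500.4 and 470 TPM in control and 599 and 596 TPM in Qk_KO (log2 fold change 0.30, SE 0.09, Benjamini-Hochberg adjusted p from limma = 0.104). Uqcrfs1, the Rieske iron-sulfur protein, stood at 169 and 189 against 183 and 179 TPM, so the groups overlapped. Uqcrc1, a core protein, was at 401 and 434 against 475 and 450 TPM without overlap, and Uqcrh, the hinge protein, at 721 and 755 against 824 and 716 TPM, with overlap. Of the other subunits outside the symbol rule, Cyc1, the cytochrome c1 of this complex, was at 381 and 372 against 377 and 372 TPM.

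In complex IV, cytochrome c oxidase, 0 of 15 subunits tested were called, where 3.24% of all genes tested were. Of the 15, 13 had a log2 fold change above 0, where 54.4% of all genes tested did. Cox4i1, the ubiquitous isoform of a subunit that regulates the enzyme, stood at 1238 and 1111 TPM in control and 1628 and 1578 TPM in Qk_KO (log2 fold change 0.45, SE 0.10, Benjamini-Hochberg adjusted p from limma = 0.0671, 0.0441 to 0.378 over the alternatives). The groups did not overlap, and its exons overlap those of Emc8 on the other strand. Cox7a2, the form of subunit 7a found in most tissues, was at 316 and 339 TPM in control and 426 and 447 TPM in Qk_KO (log2 fold change 0.42, SE 0.09, Benjamini-Hochberg adjusted p from limma = 0.0645). Cox6a1, Cox8a and Cox5a also lay above both control values in both Qk_KO libraries, Cox8a at 929 and 922 against 970 and 1134 TPM. Cox7b had the lowest fold change in this complex, at 171 and 171 against 174 and 137 TPM, so Qk_KO replicate 2 alone was low.

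Cox7a1, the heart and muscle form of subunit 7a, had the highest log2 fold change of all subunits, at a low level. It was at 2.20 and 4.12 TPM in control and 7.44 and 7.78 TPM in Qk_KO, or 3.16 ± 1.36 against 7.61 ± 0.241 TPM (SD, n = 2), and the log2 fold change was 1.09 (SE 0.26, Benjamini-Hochberg adjusted p from limma = 0.0716). The 2 control libraries differed from each other, and the log2 fold change was 0.75 without control replicate 1 and 1.43 without control replicate 2. The summed level of 8 muscle markers was between 5.95 and 7.46 TPM in control and between 6.71 and 6.77 TPM in Qk_KO. Within this sum members went in opposite directions. Actn2 was at 0.99 and 0.81 against 3.11 and 1.53 TPM, and Des at 1.96 and 4.39 against 0.61 and 1.41 TPM. Other muscle and lung forms stayed low in each library: Cox6a2 was at 1.98 and 1.19 against 1.57 and 2.17 TPM, and Cox4i2, known for its use under low oxygen, at 1.97 and 4.23 against 2.43 and 5.08 TPM. Cox6b2, known as a testis form, was higher than these, at 51.3 and 66.7 TPM in control and 88.0 and 87.2 TPM in Qk_KO (log2 fold change 0.57, adjusted p = 0.0770, limma).

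Complex V had 0 of 17 genes called, where 3.24% of all genes tested were. Of the 17, 9 had a log2 fold change above 0 and 8 below, where 54.4% of all genes tested lay above 0. Atp5l, subunit g of the membrane part, had the largest difference among abundant subunits. It stood at 825 and 640 TPM in control and 1636 and 1207 TPM in Qk_KO, or 733 ± 131 against 1422 ± 303 TPM (SD, n = 2). The log2 fold change was 0.95 (SE 0.19, Benjamini-Hochberg adjusted p from limma = 0.0567, 0.0158 to 0.313 over the alternatives). Both Qk_KO values lay above both control values, and the spread within each group was wide. It is also the subunit with 11 near-identical copies. With the gene Senp6 left out of the search, 0 of these copies were matched in the tables used here. Their part in this value was not tested. Atp5a1, the alpha subunit of the F1 head, was at 911 and 933 TPM in control and 1155 and 1138 TPM in Qk_KO without overlap (log2 fold change 0.31, adjusted p = 0.0942, limma). Atp5b, its catalytic partner, had a log2 fold change of 0.23 (SE 0.10). The other F1 subunits were closer to 0, with Atp5c1, the rotor's gamma subunit, at 312 and 341 against 316 and 310 TPM and Atp5d at 915 and 856 against 829 and 902 TPM. Of the peripheral stalk, Atp5o, which ties the stalk to the head, was at 472 and 495 against 702 and 565 TPM, and Atp5f1, Atp5h and Atp5j had log2 fold changes between -0.03 and 0.13. Atp5s and Atp5sl match the symbol rule but name no structural subunit. Atp5s was at 9.05 and 8.66 against 6.31 and 5.81 TPM, and Atp5sl at 16.8 and 12.6 against 30.3 and 20.8 TPM. Without them the median of complex V was 0.09, as before.

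Subunit c, which forms the rotating ring of the ATP synthase, is made from 3 genes whose proteins differ in the import sequence and share the mature chain. In the control libraries Atp5g3 gave 47.2% and 48.0% of their summed TPM, and in the Qk_KO libraries 56.6% and 55.5%. Atp5g2 gave 35.2% and 32.1% against 27.6% and 28.7%, and Atp5g1 gave 17.6% and 19.9% against 15.7% and 15.8%. For each of the 3 shares the groups did not overlap, and the exact permutation p was 0.333, the smallest possible. The levels were 1139 and 1216 against 1481 and 1498 TPM for Atp5g3, 849 and 812 against 723 and 774 TPM for Atp5g2, and 424 and 503 against 411 and 427 TPM for Atp5g1. The sum of the 3 genes was 2413 and 2531 TPM in control and 2615 and 2698 TPM in Qk_KO, a ratio of means of 1.07. Atp5g1 and Atp5g2 have near-identical copies (1 and 2), and Atp5g3 has none.

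The Cox7a set showed a difference of the same kind. Cox7a2l, a relative of the 7a subunits that helps join complexes III and IV into supercomplexes, stood at 256 and 252 TPM in control and 241 and 248 TPM in Qk_KO. Its share of the summed TPM of Cox7a1, Cox7a2 and Cox7a2l was 44.6% and 42.4% in control and 35.7% and 35.3% in Qk_KO, and that of Cox7a2 was 55.0% and 56.9% against 63.2% and 63.6%. Cox6b2 took 5.89% and 8.46% of the Cox6b total in control and 9.53% and 10.06% in Qk_KO. Cox4i1 held at least 99.6% of the Cox4 total, Cox6a1 at least 99.9% of the Cox6a total and Cox8a at least 99.8% of the Cox8 total in each library. These shares were computed after the values of the genes were known.

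**Figure D4:**
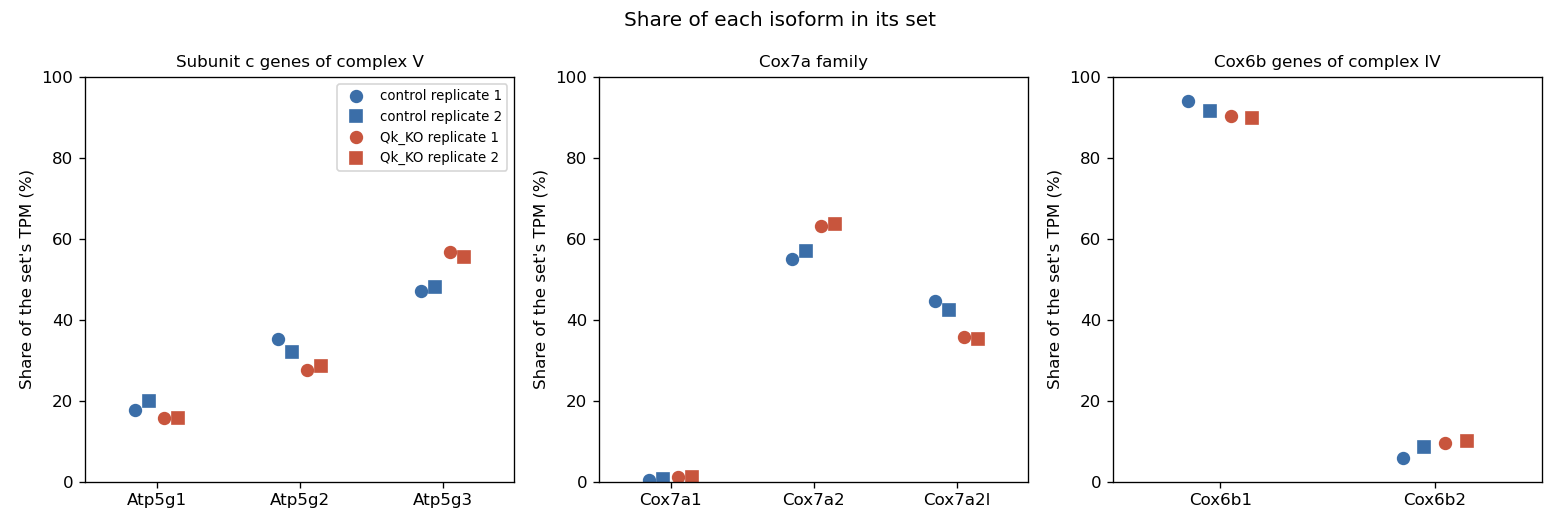
Share of each gene in the summed TPM of its isoform set, in percent, for the subunit c genes, the Cox7a family and the Cox6b genes; blue is control, red is Qk_KO, circles are replicate 1 and squares replicate 2. Atp5g3 and Cox7a2 take a larger share in both Qk_KO libraries, at 55.5% or more and 63.2% or more, than in both control libraries.

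Promoters of the subunit genes were read for letters bound by factors known to drive them: NRF1 (GCGCATGC or its reverse complement GCATGCGC), ETS proteins such as GABP (CCGGAAG or CTTCCGG) and YY1 (AAGATGGC or GCCATCTT), on both strands, in the window from 250 bases before to 50 after each start. Of the 84 genes, 69 were matched in the RefSeq table of GRCm38.p6. The NRF1 letters were in the windows of 10 of them, or 14.5%, against 3.05% of all 27025 genes with a window and 7.35% of those averaging 100 TPM or more. The YY1 letters were in 11, or 15.9%, against 3.19% and 8.02%, and the ETS letters in 16, or 23.2%, against 9.93% and 25.4%, so for the ETS letters the subunits were no higher than other abundant genes. The median log2 fold change was 0.08 over the 10 genes with the NRF1 letters and 0.10 over the 57 tested genes without them. For the YY1 letters it was 0.14 over 11 genes with them and 0.08 over 56 without. For the ETS letters it was 0.06 over 16 genes with them and 0.11 over 51 without. Of the 10 genes with the NRF1 letters, 3 were among the subunits that differed most, in both directions. Their windows are printed with the matches in capitals. In Ndufa11 the NRF1 letters occur on overlapping positions as a palindrome, Atp5l has NRF1 letters once and ETS letters at 2 places, and Uqcr11 has each once. The windows lie at chr17:56717512-56717811 on the plus strand, chr9:44920693-44920992 on the minus strand and chr10:80406772-80407071 on the minus strand of GRCm38.p6.
Ndufa11: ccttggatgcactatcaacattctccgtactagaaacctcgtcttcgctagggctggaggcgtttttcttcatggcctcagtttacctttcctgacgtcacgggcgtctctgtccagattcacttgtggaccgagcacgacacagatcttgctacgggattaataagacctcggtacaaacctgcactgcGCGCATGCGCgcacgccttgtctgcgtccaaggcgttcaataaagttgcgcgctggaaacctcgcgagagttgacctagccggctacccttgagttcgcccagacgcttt
Atp5l: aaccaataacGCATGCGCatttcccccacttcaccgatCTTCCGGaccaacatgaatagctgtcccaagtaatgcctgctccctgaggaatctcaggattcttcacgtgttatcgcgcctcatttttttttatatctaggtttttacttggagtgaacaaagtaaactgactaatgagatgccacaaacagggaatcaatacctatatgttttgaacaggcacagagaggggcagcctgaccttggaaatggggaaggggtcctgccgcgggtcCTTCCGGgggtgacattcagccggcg
Uqcr11: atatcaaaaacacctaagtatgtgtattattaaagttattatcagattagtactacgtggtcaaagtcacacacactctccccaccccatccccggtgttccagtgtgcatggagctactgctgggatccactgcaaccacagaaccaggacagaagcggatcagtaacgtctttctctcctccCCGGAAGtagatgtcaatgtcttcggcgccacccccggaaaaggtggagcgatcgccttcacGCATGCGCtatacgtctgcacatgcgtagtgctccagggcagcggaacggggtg

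Quaking binds RNA at the letters ACTAAC or ACTAAT, written here as DNA, often with a partial copy nearby. These letters were looked for in the 3' UTR of the GENCODE M21 principal transcript with the longest 3' UTR, on the transcript strand only. They were in 10 of 84 subunit genes, or 11.9%, against 33.0% of genes tested with an annotated 3' UTR. Subunit 3' UTRs were shorter, with a median of 169 nt against 1094 nt, and per 1000 nt of 3' UTR there were 0.37 sites in the subunits and 0.34 in the genes tested. Of the 10 genes, 3 had both Qk_KO values above both control values (Ndufa3, Ndufb2 and Sdhd), 2 had them below (Ndufb6 and Atp5s) and 5 overlapped, where 33.6% and 27.5% of all genes tested were above and below without overlap, with a median log2 fold change of 0.01. From these genes 4 sites are printed with 30 bases each, for 2 genes with higher and 2 with lower levels in Qk_KO, with the Quaking letters in capitals. They lie at chr7:3620138-3620167 on the plus strand (Ndufa3), chr9:50596590-50596619 on the minus strand (Sdhd), chr4:40270604-40270633 on the minus strand (Ndufb6) and chr12:69744625-69744654 on the plus strand (Atp5s) of GRCm38. A match of these letters is a description and shows no binding.
Ndufa3: aaaaatgtgaaaACTAATaaccccacaatc
Sdhd: atgctctcaatgACTAATttgtctaagtct
Ndufb6: ctatgatttgagACTAACagtaaaaagaca
Atp5s: tatctagaaaacACTAATaaagaatgccat

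Other genes of the pathway were counted from lists. Of 29 genes of the TCA cycle and pyruvate entry, 3 rose, 0 fell and 26 did not pass, with a median log2 fold change of 0.17, where 3.24% of all genes tested passed. Pcx, pyruvate carboxylase, which refills the cycle and is known as an astrocyte enzyme, rose from 78.7 and 70.7 to 156 and 184 TPM (log2 fold change 1.18, SE 0.12, Benjamini-Hochberg adjusted p from limma = 0.0268). Ogdhl, a relative of the oxoglutarate dehydrogenase E1 subunit, rose from 19.3 and 19.5 to 36.2 and 37.9 TPM (Benjamini-Hochberg adjusted p from limma = 0.0326), and Pdk2, a kinase that inhibits pyruvate dehydrogenase, from 66.0 and 59.1 to 93.2 and 94.4 TPM (Benjamini-Hochberg adjusted p from limma = 0.0493). Cs, citrate synthase, was at 386 and 388 against 404 and 421 TPM.

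Of 51 assembly factor genes tested, 0 were called, where 3.24% of all genes tested were. Their median log2 fold change was -0.14, and 14 of the 51 lay above 0, where 54.4% of all genes tested did. Without overlap, Qk_KO was lower for 20 of the 51 and higher for 8, beside 27.5% and 33.6% of all genes tested. Uqcc2, an assembly factor of complex III, was the most abundant, at 618 and 639 against 549 and 567 TPM, and Coa3, of complex IV, was at 217 and 239 against 205 and 250 TPM. Of 21 other nuclear subunits and carriers tested 0 were called, with a median of 0.15. The ADP/ATP carriers Slc25a4 and Slc25a5 were the most abundant, at 896 and 813 against 1018 and 926 TPM and at 837 and 792 against 933 and 922 TPM. Of 28 regulators of mitochondrial biogenesis and transcription tested, 0 were called, with a median of 0.09. Of the 28, 16 had a log2 fold change above 0, where 54.4% of all genes tested did. Without overlap, 11 were higher and 8 lower in Qk_KO, beside 33.6% and 27.5% of all genes tested. Yy1 was at 73.2 and 77.9 against 69.2 and 75.5 TPM, and Polg, the mitochondrial DNA polymerase, at 76.8 and 73.0 against 70.3 and 71.8 TPM. Named after their values were seen, Ppargc1a, the coactivator known to drive mitochondrial biogenesis, was at 12.2 and 16.9 against 24.7 and 24.2 TPM (adjusted p = 0.0724, limma), and Gabpa, the ETS factor whose letters were searched above, at 29.9 and 33.5 against 24.2 and 24.7 TPM (adjusted p = 0.119, limma). Nrf1 was at 30.4 and 27.0 against 32.1 and 31.3 TPM. Also named after their values were seen, Pprc1 was at 40.6 and 43.4 against 31.3 and 32.5 TPM (adjusted p = 0.0893, limma). Myc was at 48.6 and 69.2 against 23.4 and 36.7 TPM (adjusted p = 0.089, limma).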

How the data were processed

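Polyadenylated RNA of 4 mouse libraries was read on an Ion Proton instrument, as the labels' protocols state. Each deposited table gives TPM by gene for 1 library. The submitters' processing notes name STAR 2.4.1d, RSEM 1.3.0, mm10 and GRCm38.p4. Annotation, filters, strand and depth: not given in the sources used here. All 1083 values above 500 TPM lie on a grid of log2(TPM + 1) rounded to 4 decimals (within 0.05 of a step), so the deposited TPM passed through that scale.

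Values were taken as log2(TPM + 1), with a pseudocount of 1. Genes averaging 1 TPM or more (13260 of 35857) were tested, Qk_KO minus control, with limma 3.58.1 (eBayes with a mean-variance trend, 5.57 degrees of freedom) in R 4.3.3, two-sided, Benjamini-Hochberg adjustment over all genes tested, threshold 0.05. The fit was tested on simulated data. A single value per library was compared by an exact permutation test. Copies were found with BLAST 2.17.0 against GENCODE M21 transcripts.

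Members and lists were chosen with earlier results of these data known. Named genes were, per complex, called subunits or else the 2 with the highest mean TPM, the largest increase and decrease, and a fixed set of catalytic subunits and isoforms, plus up to 3 called genes per list or else the 2 most abundant. Others were chosen after their values were seen. Alternatives were other pseudocounts, filters, scalings and limma settings, the replicate number as a block, each library left out, small RNA genes left out, and length or GC trends removed. The values of 1 subunit of complex I are not reported here singly, and it stays in the counts, medians and sums.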

Additional observations from a re-analysis of the deposited data

How the results depend on the processing

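With other settings the number of genes called, 430, was 0 with no filter on low genes (4327 at an unadjusted p under 0.05 in limma), 649 among genes averaging 5 TPM or more, 41 without limma's trend, 1278 with the replicate number as a block, 788 without small RNA genes, and between 4 (without control replicate 2) and 148 (without Qk_KO replicate 2) with 1 library left out, where 10 passed without control replicate 1 and 60 without Qk_KO replicate 1. The number of subunits called higher, 0, was 1 at a pseudocount of 0.1, among genes averaging 5 TPM or more, with quantile normalization and with the length trend removed, 2 without small RNA genes and 5 with the block, and 0 with each library left out; 0 subunits were called lower at any setting. The labels give the replicates of both groups the same numbers, and the correlation of their deviations was 0.114, but 2 pairs do not show that the numbers pair the libraries. The median over all subunits was 0.054 with median-ratio scaling, 0.042 with the GC trend removed and 0.063 to 0.11 with 1 library left out. That of complex I was 0.038, 0.038 and 0.029 to 0.13 with the same settings, and 0.0503 with the length trend removed. That of complex IV was 0.11 among genes averaging 5 TPM or more, 0.10 with quantile normalization, 0.094 with the GC trend removed and 0.0802 to 0.25 with 1 library left out. With the GC trend removed complex II stood at 0.19 and complex V at 0.014, and complex V at 0.026 to 0.16 with 1 library left out. The log2 difference of the summed TPM, 0.14, was 0.11 with median-ratio scaling. The cause of these shifts was not tested. Signs turned for 9 of 507 values of the named subunits. Uqcrfs1 stood at -0.013 with median-ratio scaling and -0.0074 with quantile normalization, scalings that moved the median of all genes from 0.04 to 0.0044 and -0.01, and Sdhb at -0.003 with the GC trend removed. With 1 library left out, Uqcrfs1 ran from -0.057 (without control replicate 1) to 0.099, Cox4i2 from -0.20 (without Qk_KO replicate 2, and also without control replicate 1) to 0.63, Cox6a2 from -0.062 (without control replicate 2) to 0.38, Uqcrh from -0.043 (without Qk_KO replicate 1) to 0.16, and Cox7b from -0.32 to 0.029 (without Qk_KO replicate 2). With 1 library left out, the lone library of a group is assumed to vary like the others. TPM gives no depth, so what read number limits cannot be stated.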
